A study of Mus musculus with 2 samples.

Results

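Alpha beta T cells made up 195 of the 7076 cells recovered from whole mouse uterus, 79 of 3490 in the library labelled control and 116 of 3586 in the library labelled cKO (conditional knockout). The cells were chosen by counts of unique molecular identifiers (UMIs), each of which stands for 1 captured RNA molecule. Barcodes counted as cells from 1000 UMIs and 500 genes upward, provided that mitochondrial genes took no more than 20% of the UMIs. An alpha beta T cell also had at least 1 UMI on Cd3e, Cd3d or Cd3g and at least 2 on the constant segments Trac, Trbc1 and Trbc2. Those segment UMIs had to be at least as many as the UMIs of the gamma delta genes Trdc, Tcrg-C1, Trdv4 and Cd163l1, with at most 2 UMIs on C1qa, C1qb and C1qc and none on Pdgfra or Epcam. These genes were used to choose the cells, so their levels are given below as a description.

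The control library was titled Prickle1 f/f (both copies of Prickle1 flanked by recombination sites) and the other Prickle1 f/f MiC. What MiC stands for is not given in the sources used here; the series title places its loss in the myometrium, the muscle of the uterus. PRICKLE1 is known for its role in planar cell polarity. Each library was a pool of uteri from 3 female C57BL/6J mice aged 6 months, and the genotype field reads wild-type for both. The tissue was digested with collagenase for 5 hours and captured in droplets with a kit that reads the 3-prime end of transcripts. With 1 library per group there is no replicate, so no test of the condition was possible, and each interval below is a 95% interval that covers counting error only.

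An alpha beta T cell carries a receptor made of an alpha and a beta chain, held at the surface by the CD3 proteins, and reads peptides that MHC proteins present. CD4 T cells read MHC class II and direct other immune cells; CD8 T cells read MHC class I and can kill. In the uterus such cells are few and are found among fibroblasts, muscle and epithelium, together with gamma delta T cells, natural killer (NK) cells and macrophages. Interferons, which cells release on sensing viruses or other danger, raise a common set of genes in nearly all cell types, T cells included.

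The libraries held 45035801 and 34261441 UMIs, control first, as in every pair of values below. Only 6 cell barcodes occurred in both libraries, none of them among the alpha beta T cells. Over all cells, Prickle1 had 96 and 265 UMIs, or 2.56 and 9.03 CPM (UMIs scaled to a common total). Its level over all cells was thus not lower in the library labelled cKO. The series title places the loss in the myometrium, so a level over all cells does not check the label. Within the alpha beta T cells Prickle1 had 1 and 2 UMIs. The alpha beta T cells summed to 405938 and 559671 UMIs, with a median of 4308 and 3954 UMIs and 1891 and 1853.5 genes per cell.

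The constant segments are what the choice of cells rests on, and the beta chain has a pair of them whose first exons are almost the same. Trac lies at chr14:54220521-54224206, Trbc1 at chr6:41538218-41539881 and Trbc2 at chr6:41546730-41548352, all on the plus strand of mm10 (GENCODE vM21). Over the 375 bases of their first exon, Trbc1 and Trbc2 were 99.7% identical. They differed at 1 base, C260A, counted from the first base of the exon with Trbc1 first. The stretch around that base shows how similar the first exons are, with the differing base in capitals.
Trbc1 (chr6:41538447-41538507, plus strand): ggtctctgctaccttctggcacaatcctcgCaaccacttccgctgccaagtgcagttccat
Trbc2 (chr6:41546959-41547019, plus strand): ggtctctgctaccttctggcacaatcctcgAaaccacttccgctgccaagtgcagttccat
Reads of this exon cannot always be told apart, so the split between Trbc1 and Trbc2 is uncertain and their sum was used.

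Trac had a UMI in 53 of 79 control cells (67.1%) and 74 of 116 cKO cells (63.8%), at 308 and 350 CPM. Cd3e, which carries the CD3 signal into the cell, had a UMI in 77.2% and 77.6% of cells. A further 26 and 42 cells entered on Trbc1 or Trbc2 alone. Gamma delta T cells can also carry beta chain transcripts, so such cells are less surely of the alpha beta class. Pdgfra-positive cells were chosen by UMIs on Pdgfra, with none on Ptprc, the Cd3 genes or Epcam. Trac was seen in 0 of 489 and 0.111% of 897 of them, at a median depth of 14379 and 12765 UMIs. Cells with T cell RNA were thus partly left out in advance, so these low shares are a description.

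At the edge of the rule, 16 and 18 cells had exactly 2 UMIs of the constant segments, and 6 and 16 cells outside it had 1 and met all else. No control cell and 1 cKO cell among those chosen had as many gamma delta as alpha beta UMIs. Another 52 and 193 cells with a Cd3 UMI and at least 2 constant segment UMIs had more gamma delta UMIs and were left out. A gamma delta gene had a UMI in 12 and 19 of the chosen cells. Tyrobp or Fcer1g, adaptor genes of NK and myeloid cells, had one in 22 and 22 cells, and the NK receptor genes Ncr1 or Klrb1c in 1 and 5. At least 10 UMIs in all on the class II genes Cd74, H2-Aa, H2-Ab1 and H2-Eb1 were present in 4 and 3 cells. Some of the chosen cells thus carried genes of other cell types. No doublet caller was run.

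As a share of all cells, alpha beta T cells were 2.26% in the control (1.80 to 2.81) and 3.23% in the cKO library (2.68 to 3.87). The log2 ratio was 0.52, with an interval from 0.09 to 0.95. Among cells with no Epcam UMI, which leaves out most epithelium, the shares were 3.22% and 3.36%, a log2 ratio of 0.06 (-0.36 to 0.49). The higher share in the cKO library therefore rested on the denominator. The libraries held 1040 and 137 cells with an Epcam UMI.

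Among cells with a Cd3 UMI the order turned: alpha beta T cells were 39.5% in the control (32.7 to 46.6) and 26.1% in the cKO library (22.1 to 30.5). The log2 ratio was -0.60, with an interval from -1.02 to -0.17. Before alpha beta were set against gamma delta UMIs, 141 of 200 and 322 of 444 cells with a Cd3 UMI had at least 2 constant segment UMIs. Gamma delta T cells, chosen by the mirror of the rule, numbered 74 and 264, which is 2.12% and 7.36% of all cells. Of all alpha beta and gamma delta T cells together, 51.6% (43.4 to 59.8) and 30.5% (25.9 to 35.4) were alpha beta. A change in one type of cell moves the share of every other, and with pools of 3 mice the spread between mice is not known.

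**Figure D1:**
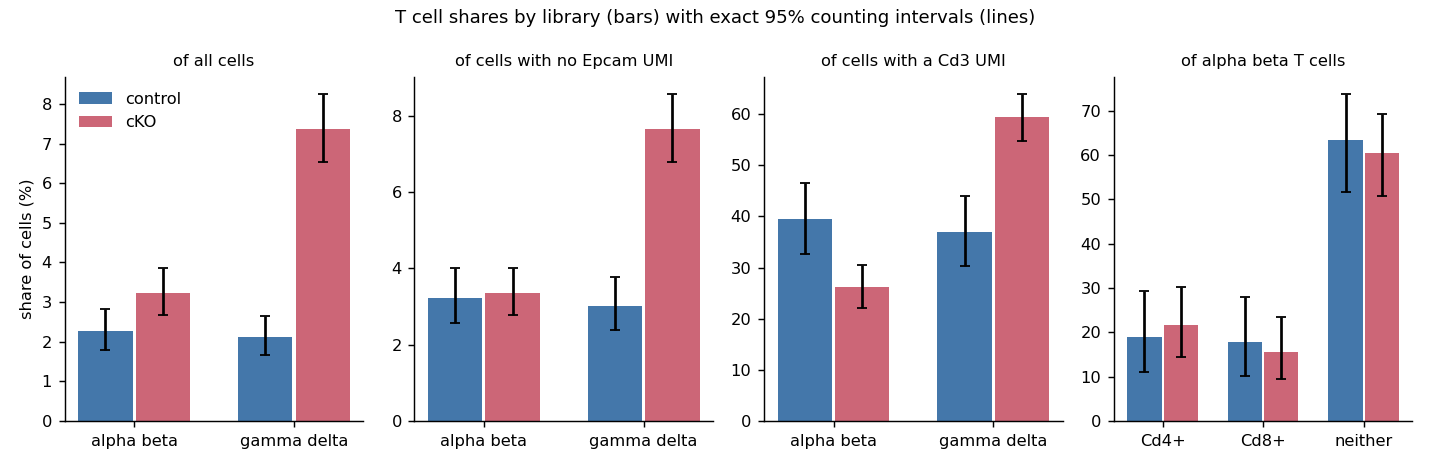
Shares of cells (%) in the library labelled control (blue) and the library labelled cKO (red) for 3 denominators and, at the right, for subsets of the alpha beta T cells; lines are exact 95% counting intervals. Alpha beta T cells are 3.22% and 3.36% of cells with no Epcam UMI, and the gamma delta bars are 3.02% and 7.65% there.

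The subsets were read from Cd4, the pair Cd8a and Cd8b1, and Foxp3, the master regulator of regulatory T cells. Cd4-positive cells were 15 of 79 (19.0%) and 25 of 116 (21.6%), with a log2 ratio of 0.18 and an interval from -0.80 to 1.21. Cd8-positive cells were 14 (17.7%) and 18 (15.5%), with a log2 ratio of -0.19 and an interval from -1.28 to 0.93. Both intervals span 0, and they cover counting error only, so they do not speak to a difference between the conditions. Foxp3 had no UMI in 79 control cells, which allows a share of up to 3.80% of cells with a UMI, and it had one in 2 of 116 cKO cells (1.72%, 0.209 to 6.09).

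Most cells, 50 (63.3%) and 70 (60.3%), showed neither coreceptor. After each cell was thinned to 1000 UMIs, that share was 87.3% and 87.1%, and Cd4-positive cells were 6.33% and 8.62%. The share with neither moves with depth and counts cells in which no coreceptor UMI was captured. Cd4 was seen in 0.818% and 0% of Pdgfra-positive cells, against 19.0% and 23.3% of alpha beta T cells, where cells with Foxp3 or both coreceptors are counted too. Cd8a was seen in no Pdgfra-positive cell and in 12.7% and 10.3% of alpha beta T cells, and Cd8b1 in 0.204% and 0.334% against 11.4% and 11.2%. These shares in alpha beta T cells were above those in the Pdgfra-positive cells. Cells with a Cd3 or Ptprc UMI had been left out of the latter in advance. Over all alpha beta T cells Cd4 had 23 and 68 UMIs (56.7 and 121 CPM), a log2 ratio of 1.04 with an interval from 0.40 to 1.85, although the share of cells differed little.

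Beside the genes that define them, the subsets differed in both libraries. Cd4-positive cells were higher than other alpha beta T cells in Cd5, a receptor that damps T cell receptor signals, at 399 and 281 CPM against 91.6 and 73.1 CPM. Calca, the gene of calcitonin and its related peptide, stood at 635 and 950 CPM in Cd4-positive cells against 109 and 78.0 CPM in the others. Calca came from 3 of 15 and 7 of 25 Cd4-positive cells. The proliferation genes Mki67, Top2a, Rrm2, Pclaf and Stmn1 were also among the 8 leading genes, but in the control library 1 or 2 cells carried them.

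Cd8-positive cells were higher in Klrc2, an activating NK-type receptor, at 234 and 160 CPM against 43.7 and 49.2 CPM. Cells with neither coreceptor were higher in Il12rb2, a chain of the interleukin 12 receptor, at 91.0 and 97.9 CPM against 13.1 and 18.3 CPM. They were also higher in Gzmb, the granzyme B gene, at 229 and 161 CPM against 0 and 10.96 CPM, from 6 and 3 cells.

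The 195 cells fell into 6 clusters when grouped on genes outside the rule, with the interferon, cell cycle and immediate early lists kept out. The genes that lead a cluster are those it was built on, so they are a description. Cluster levels are summed over both libraries. Cluster 1 (15 and 30 cells) was led by Tent5a, Cd5, Tnfrsf4 and Gata3, the last a regulator of type 2 helper T cells. Gata3 stood at 524.5 CPM against 116 CPM in the other clusters, but the shares of cells with a UMI were close, at 35.6% and 33.3%. Cd28, which gives the second signal for T cell activation, stood at 1026 CPM in cluster 1, and 19 of its 45 cells were Cd4-positive.

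Cluster 3 (18 and 17 cells) was led by Rflnb, Il6ra, Itga6 and Tnfsf8. S1pr1, the receptor that lets T cells leave tissue, stood at 704 CPM in it against 180 CPM in the other clusters. Lef1, a regulator of naive and memory T cells, stood at 283 against 77.9 CPM.

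Cluster 4 (11 and 22 cells) was led by Gzmk, the granzyme K gene, with Eomes, Myb, Klrc1 and Klrc2. It held 14 of the 32 Cd8-positive cells, and 84.8% of its cells had a Trac UMI, the highest share of any cluster. Igkc, an antibody light chain gene, was also a leading gene, at 355 CPM. Its level in empty droplets was 17.3 and 1324 CPM, and the part of free RNA in its level was not tested.

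Cluster 2 (17 and 24 cells) went partly against the label. Its leading genes were the NK-type receptor genes Klra4, Klra7 and Klre1, with Cd7, Irf8, Fcer1g and Tyrobp. Klre1 stood at 483 CPM against 18.9 CPM in the other clusters and 554 CPM in NK cells. Trac had a UMI in 25 of its 41 cells, and Tyrobp or Fcer1g in 33.

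Cluster 5 (15 and 17 cells) also went partly against the label. Trac had a UMI in only 40.6% of its cells, a gamma delta gene in 16 of 32, and Cd4 in none. Sdc1, the syndecan 1 gene, stood at 331 CPM against 2.46 CPM in the other clusters and 442 CPM in gamma delta T cells. Igf1r, the insulin-like growth factor 1 receptor, stood at 3988 CPM against 206 and 3093 CPM. The interleukin receptor genes Il17re, Il23r and Il1r1 and the innate-like regulator Zbtb16 were also among its leading genes.

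Cluster 6 (3 and 6 cells) had a median of 14861 UMIs per cell and was led by Ccl22 and the class II genes H2-Aa, H2-Ab1 and H2-Eb1, which antigen-presenting cells express. Of its 9 cells, 6 had at least 10 class II UMIs. No cell type name was given to any cluster.

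**Figure D2:**
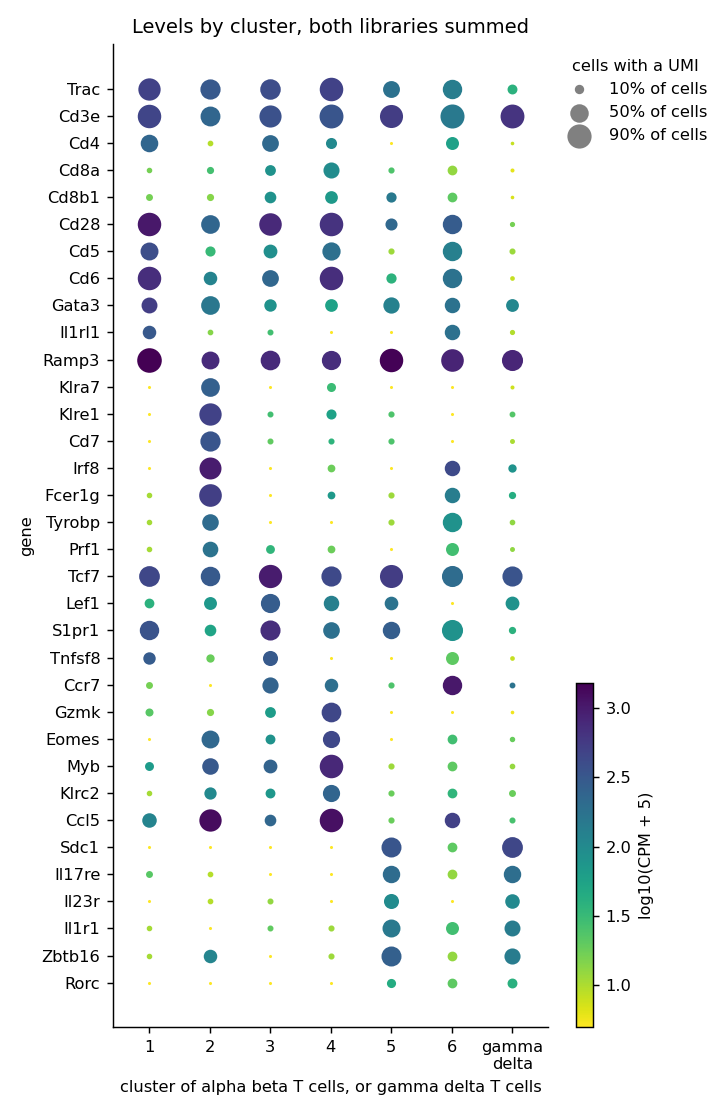
Levels of selected genes (rows) in clusters 1 to 6 of the alpha beta T cells and in gamma delta T cells (columns), both libraries summed; colour is log10(CPM + 5), with levels above 1500 CPM in the darkest shade, and dot size the share of cells with a UMI. Sdc1 is at 331 CPM in cluster 5 and 442 CPM in gamma delta T cells, and Klre1 is at 483 CPM in cluster 2.

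To compare the libraries, the UMIs of all alpha beta T cells of a library were summed and scaled to CPM. Log2 ratios are cKO over control with 5 CPM added to each level, and each interval is that of the plain ratio, without the added 5 CPM. Of 6400 genes with a mean of at least 20 CPM, 206 (3.22%) were past 2-fold higher and 157 (2.45%) past 2-fold lower in the cKO library. The median over all 6400 was 0.08. Scaled by the median of ratios instead, 155 were higher and 200 lower, so the balance between the directions turned with the scaling.

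The 10 highest ratios each came mostly from 1 cell. Spp1, the osteopontin gene, had 2 and 284 UMIs (4.93 and 507 CPM, a log2 ratio of 5.69, 4.82 to 9.74), and 96.5% of the cKO UMIs lay in 1 cell. Among cells with a Trac UMI its ratio turned to -0.14. Col1a1, a fibroblast collagen gene, had 0 and 79 UMIs, at least 19.1-fold higher per the count floor of 3 UMIs per library, with 97.5% in 1 cell. Ptgs2, S100a8, Cxcl2, Col3a1, Ccl4, Cyp1a1, Olfr655 and Tm4sf1 were of the same kind. The fibroblast list as a whole was seen in 9 of 79 and 14 of 116 cells, at 0.0335% and 0.0459% of UMIs.

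Of the 10 lowest ratios, 7 also came mostly from 1 cell. Gzmc, the granzyme C gene, had 148 and 4 UMIs, 81.8% of the former in 1 cell; without the cells that had Tyrobp or Fcer1g its ratio turned to 0.59. Cxcl10, an interferon-induced chemokine, had 56 UMIs in 10 control cells and 0 in the cKO library, at least 25.7-fold lower, with 57.1% in 1 cell. Rsad2 (viperin, an antiviral enzyme) had 68 UMIs in 16 cells and 6 in 3, a log2 ratio of -3.46 (-5.46 to -2.77). Prap1, a secreted protein of uterine epithelium, had 40 UMIs in 25 control cells and 0 in the cKO library, at least 18.4-fold lower. Its level in empty droplets was 11317 CPM in the control and 249 CPM in the cKO library, and 28.8% of control Pdgfra-positive cells had a UMI of it, beside 31.6% of the control alpha beta T cells. Taken as free RNA alone, its control UMIs would put free RNA at 0.871% of the alpha beta T cell UMIs. The joint estimate from other markers, given below, was 8.08% in the control. The part of free RNA in its level was not tested.

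When genes were required in at least 10 cells, with at most 25% of UMIs in any 1 cell, 147 of 5875 were past 2-fold higher and 95 lower; this filter was chosen after the values were seen. Among the 10 highest of these was Gzmk, with 14 UMIs in 9 control cells and 67 in 20 cKO cells (34.5 and 120 CPM, a log2 ratio of 1.66, 0.95 to 2.74). Within cluster 4 it stood at 170 and 605 CPM, in 5 of 11 and 14 of 22 cells. The other 9 were Tmem161b, Akap8l, Immp1l, Slc39a14, Slc15a2, Phtf2, Atg4d, Crebl2 and G2e3, at 2 to 7 control and 23 to 45 cKO UMIs. Of the 10 lowest, 8 were on the interferon list: Ifit1, Oasl1, Irf7, Cmpk2, Lgals3bp, Zbp1, Ifi203 and Ifi214. That list was chosen with earlier results of these data known, so the overlap is a description. The share of list genes among all 5875 is not given here.

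**Figure D3:**
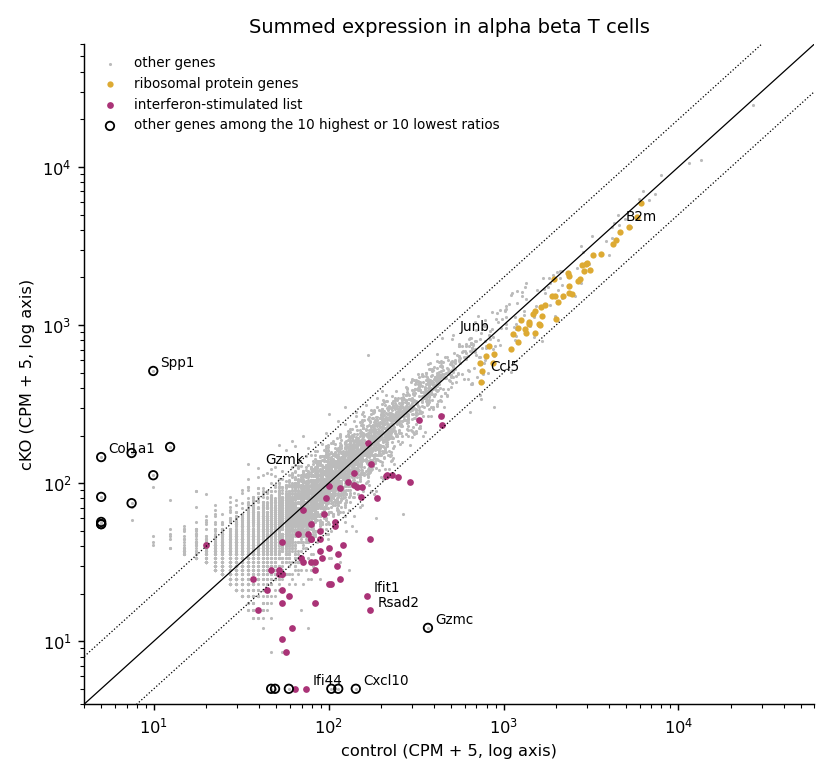
Summed level of each of 6400 genes in alpha beta T cells of the library labelled control (x axis) and the library labelled cKO (y axis), as CPM + 5 on log axes; the solid line marks equal levels and the dotted lines 2-fold. Interferon-stimulated genes (purple) lie below the line for 65 of 67 genes, and ribosomal protein genes (yellow) for 49 of 50.

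Interferon-stimulated genes were lower in the cKO library. Of 79 genes listed, 67 passed the floor, and 36 of these were past 2-fold lower and 1 higher, beside 2.45% and 3.22% of all genes. The median log2 ratio was -1.03, beside 0.08 over all genes, and 65 of 67 were below 0. For 49 of the 67 the counting interval lay below 0, and for none above. The same count over all genes is not given here, so this count has no background beside it. Summed, the list took 0.769% of UMIs in the control and 0.374% in the cKO library.

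Among the direct antiviral effectors, Ifit1, which binds foreign RNA, had 65 UMIs in 17 control cells and 8 in 6 cKO cells (160 and 14.3 CPM, -3.10, -4.76 to -2.42). Ifit3, its partner, had 24 UMIs in 7 cells and 0, at least 11.03-fold lower. Isg15, a ubiquitin-like modifier, had 39 and 19 UMIs (96.1 and 33.9 CPM, -1.38, -2.37 to -0.67). Control levels thus exceeded cKO levels for each of these effectors. Among the transcription factors that carry the signal, Irf7 had 20 and 3 UMIs (-2.39, -5.59 to -1.45). Irf9 stood at 91.1 and 75.04 CPM, with an interval that spans 0 (-0.95 to 0.40).

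The interferon-induced GTPases, which attack vacuoles that hold microbes, were lower as well, Igtp with 44 and 17 UMIs (-1.68, -2.736 to -0.999) and Gbp4 with 47 and 20 (-1.57, -2.53 to -0.91). Oasl2 was the 1 gene past 2-fold higher, on 6 and 20 UMIs, with an interval from -0.09 to 2.88. Of the receptor genes, Ifnar1 stood at 128 and 134 CPM, Ifnar2 at 88.7 and 89.3 CPM, and Ifngr1 at 1318 and 1731 CPM (0.39, 0.24 to 0.55).

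**Figure D4:**
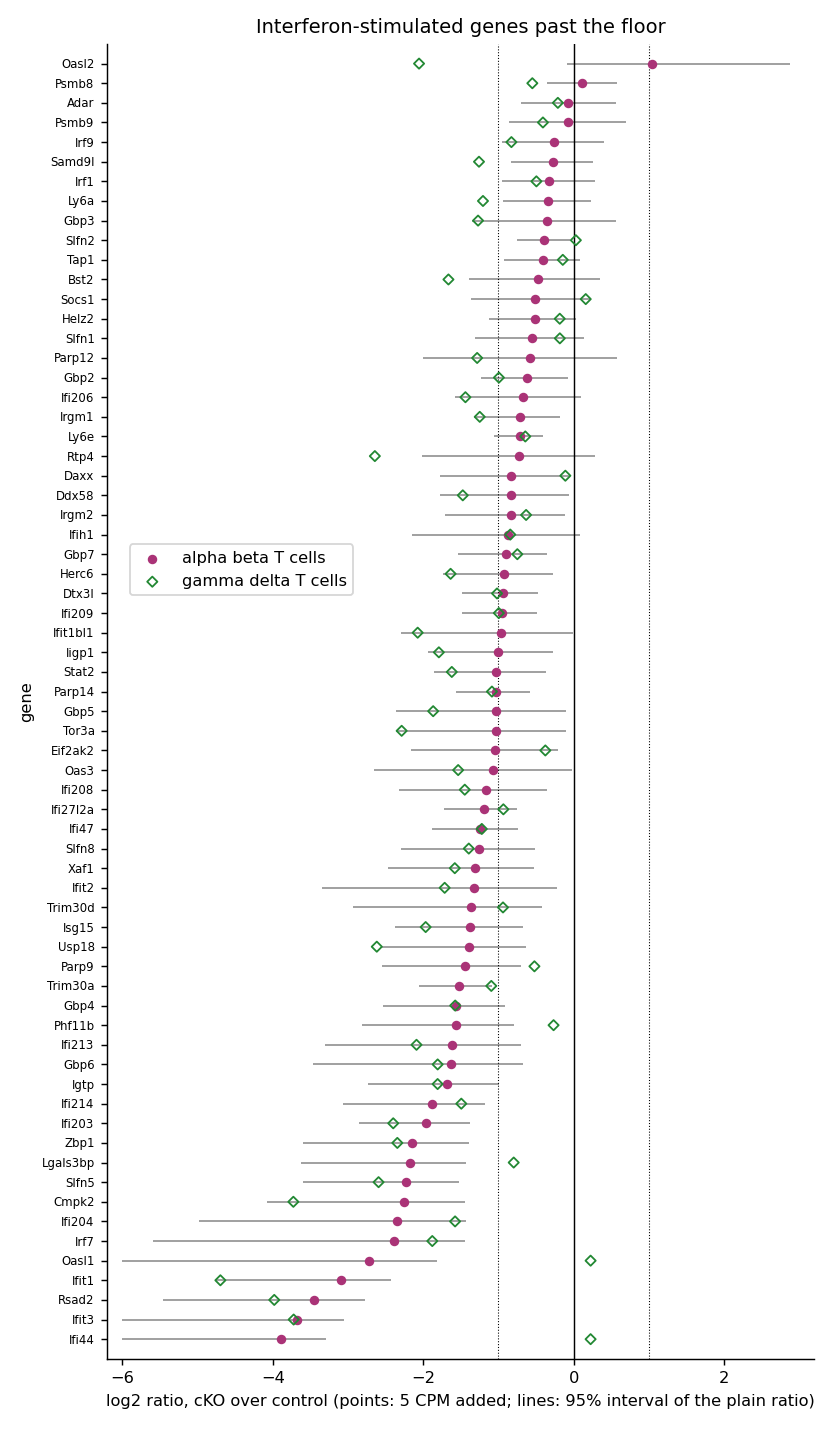
Log2 ratio, cKO over control with 5 CPM added, of interferon-stimulated genes past the floor (rows) in alpha beta T cells (purple points) and gamma delta T cells (green diamonds); lines are 95% counting intervals of the plain ratio in alpha beta T cells, drawn to -6 where they go lower. All but 2 purple points lie left of 0, and 36 lie at or left of -1.

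The same list was lower in empty droplets and in gamma delta T cells, which come from the same libraries. It took 0.453% and 0.123% of the UMIs of empty droplets. In gamma delta T cells 32 of 53 genes were past 2-fold lower and none higher, with a median of -1.25, beside 1.69% lower and 4.43% higher of all 6551 genes past the floor there. Ifit1 stood at 266 and 15.3 CPM in empty droplets and Isg15 at 359 and 69.1 CPM, each above its level in the alpha beta T cells of the same library. In Pdgfra-positive cells Ifit1 was seen in 8.79% and 0.446%, against 21.5% and 5.17% of alpha beta T cells. After thinning to 1000 UMIs those alpha beta shares were 6.33% and 0.862%, in cells read less deeply than the Pdgfra-positive ones. Igtp was lower in empty droplets than in alpha beta T cells, at 9.82 and 6.28 CPM. Free RNA, estimated from fibroblast, muscle and epithelium markers, was 8.08% and 10.7% of the UMIs of alpha beta T cells. The estimate depended on the markers: it was 28.1% and 24.6% from the fibroblast list alone, which includes Col1a1 and Col3a1 with most UMIs in 1 cell. It was 4.75% and 4.40% from the smooth muscle list, 3.51% and 4.34% from the epithelium list, and 0.871% and 0% from Prap1 alone, values that were computed after seeing the data. The joint estimate of 8.08% and 10.7% would bring 0.0366% and 0.0131% of UMIs on the list, beside the 0.769% and 0.374% measured. With it subtracted, the interferon-stimulated list median was -0.997.

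Cell by cell, after thinning to 1000 UMIs, the list had a median of 4 and 3 UMIs per cell, with a range of 0 to 52 and 0 to 16. At least 20 were found in 7 of 79 control cells (8.86%, 3.64 to 17.4) and in 0 of 116 cKO cells. The medians were thus close, and the third quartiles were 7.5 and 5. Some control cells lay above every cKO cell, among them cells at 17 and 18, below the cut of 20. Of those 7 cells, 4 lay in cluster 2.

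Of the 5 clusters compared (cluster 6, with 9 cells, was left out), the lowest ratio was in cluster 2, where the list took 1.47% of UMIs in 17 control cells and 0.317% in 24 cKO cells, a log2 ratio of -2.22 (-2.38 to -2.06). It was 0.665% and 0.304% in cluster 4, 0.697% and 0.429% in cluster 1, and 0.518% and 0.298% in cluster 5. In cluster 3 the values were 0.423% and 0.497%, a log2 ratio of 0.23 with an interval from -0.003 to 0.47. Cluster 3, in which S1pr1 and Lef1 were high, was the 1 cluster of these 5 in which the list was not lower in the cKO library. The difference between clusters was not tested. Without cluster 2 the median over the list was -0.57, and 8 of 62 genes were past 2-fold lower and none higher, beside 3.05% lower and 4.54% higher of all 6387 genes past the floor in those cells.

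By coreceptor, the list took 0.473% and 0.393% of UMIs in Cd4-positive cells, 0.680% and 0.470% in Cd8-positive cells, and 0.878% and 0.320% in cells with neither. The median over the list was -0.41, -0.87 and -1.47. In clusters 1, 3 and 4 alone, the median was -0.61, on 44 and 69 cells. That selection was chosen after the values were seen. The direction held there, at a smaller size than over all cells.

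**Figure D5:**
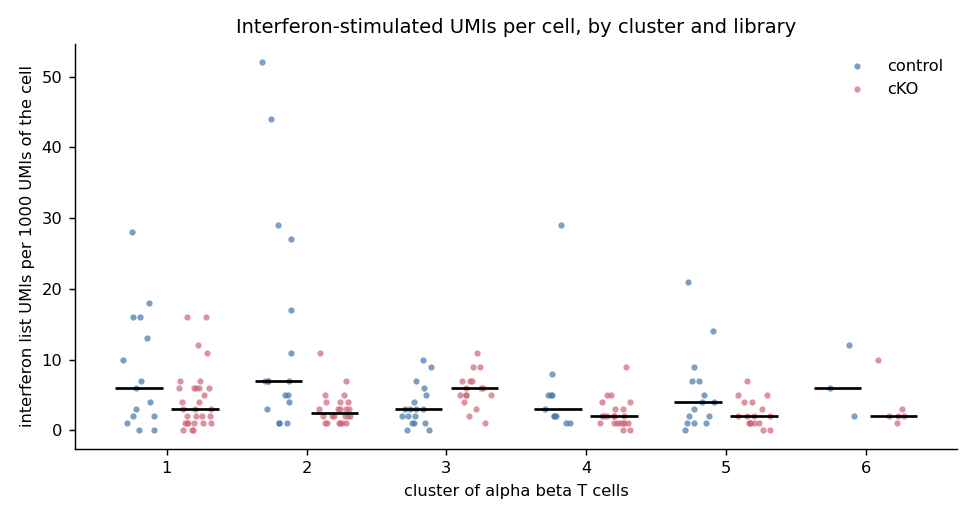
UMIs of the interferon-stimulated list per 1000 UMIs of each alpha beta T cell (y axis), by cluster (x axis) and library (blue control, red cKO); black lines are medians. The highest control cells, at 52 and 44, lie in cluster 2, and the cluster 3 medians are 3 and 6.

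Promoters of several of these genes are shown because the genes were low together. The motif searched was GAAANNGAAA on both strands, so also TTTCNNTTTC, the core of the interferon-stimulated response element that interferon regulatory factors bind. It was searched in the 250 bases before the start of each gene, from RefSeq on GRCm38.p6 (mm10). It occurred in 26 of the 53 interferon list genes past the floor that had a promoter (49.1%), in 3.68% of 5164 genes past the floor and in 3.46% of all 27025 genes. Among list genes past 2-fold lower it occurred in 17 of 26 (65.4%), and among the others past the floor in 9 of 27 (33.3%). A stretch around the motif is given for 6 genes chosen after their values were seen; capitals mark its fixed letters.
Ifit1 (chr19:34640774-34640843, plus strand, log2 ratio -3.10): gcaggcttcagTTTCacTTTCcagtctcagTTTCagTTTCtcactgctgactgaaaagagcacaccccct
Ifit3 (chr19:34583377-34583446, plus strand, log2 ratio -3.68): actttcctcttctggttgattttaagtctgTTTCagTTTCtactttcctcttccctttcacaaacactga
Rsad2 (chr12:26456533-26456602, minus strand, log2 ratio -3.46): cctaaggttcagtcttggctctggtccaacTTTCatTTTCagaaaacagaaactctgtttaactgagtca
Isg15 (chr4:156200845-156200914, minus strand, log2 ratio -1.38): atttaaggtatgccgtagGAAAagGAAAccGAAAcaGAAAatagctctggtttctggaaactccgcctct
Igtp (chr11:58199492-58199555, plus strand, log2 ratio -1.68): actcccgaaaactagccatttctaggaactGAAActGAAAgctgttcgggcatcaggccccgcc
Gbp3 (chr3:142559975-142560043, plus strand, log2 ratio -0.35): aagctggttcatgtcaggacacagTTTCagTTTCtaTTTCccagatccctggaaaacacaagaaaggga
Gbp3 is shown as a gene with the motif whose ratio was small, with an interval from -1.35 to 0.57. A match describes letters in this window and is not evidence of binding.

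Ribosomal protein genes were slightly lower in the cKO library, 49 of 50 below 0 with a median of -0.38 and none past 2-fold. They took 11.1% and 8.61% of UMIs. In gamma delta T cells the median was -0.44, with 7.30% and 5.64% of UMIs. The median mitochondrial share was 4.70% and 4.41%. The part of depth or RNA quality in this difference was not tested. The MHC class I genes had a median of -0.30 with none of 16 past 2-fold; B2m, their light chain, stood at 4552 and 4311 CPM. In clusters 1, 3 and 4 alone the class I median turned to 0.15.

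Genes of glucocorticoid, aryl hydrocarbon and metabolic responses had a median of 0.36, with 17 of 19 above 0 and 13 of 19 above the all-gene median of 0.08. Of the 19, 3 were past 2-fold higher, beside 3.22% of all genes, and none lower. Fkbp5, a glucocorticoid target, had 4 UMIs in 2 control cells and 22 in 17 cKO cells (1.58, 0.44 to 3.99). Tsc22d3, also a glucocorticoid target, had 35 and 96 UMIs (86.2 and 172 CPM, 0.95, 0.42 to 1.59). Tiparp, an aryl hydrocarbon receptor target, stood at 158 and 307 CPM (0.94, 0.54 to 1.40), and at 259 and 333 CPM in empty droplets. Cyp1a1, a target of the same receptor, had all of its 28 cKO UMIs in 1 cell.

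Genes of T cell receptor signalling outside the rule had a median of -0.14, and none of 21 was past 2-fold. The nearest to it was Lat, the membrane scaffold that receptor signals pass through, at 138 and 279 CPM (56 UMIs in 39 cells and 156 in 72, 0.99, 0.57 to 1.48). Its level was higher in the cKO library in each of the 6 clusters. In gamma delta T cells the ratio of Lat was -0.24. Cd28 stood at 448 and 575 CPM (0.36, 0.09 to 0.63).

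The cytotoxic list had a median of -0.30, with 4 of 15 genes past 2-fold higher and 2 lower, beside 3.22% and 2.45% of all genes. It took 0.257% and 0.202% of UMIs. The 4 were Gzmk, Gzma, Ccl4 and Ccl3, the last a chemokine gene with 94% of its cKO UMIs in 1 cell. The 2 were Gzmc and Prf1, the perforin gene, which had 32 and 15 UMIs (78.8 and 26.8 CPM, -1.40, -2.55 to -0.63). In cluster 2 Prf1 stood at 283 and 83.6 CPM, and among cells with a Trac UMI its ratio turned to 0.43. Ccl5, a chemokine of effector T cells, stood at 756 and 482 CPM (-0.64, -0.89 to -0.41), in 34 of 79 and 48 of 116 cells.

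Cell cycle genes had a median of 0.01, with 1 of 25 past 2-fold higher and 2 lower, beside 3.22% and 2.45% of all genes. The 2 were Mki67 and Top2a, with 69.1% of the control Mki67 UMIs in 1 cell. Pcna, the replication clamp, stood at 224 and 348 CPM (0.62, 0.27 to 1.01). The list median moved to 0.44 when each cell had equal weight and to -0.49 when the coreceptor subsets had equal weight. Checkpoint genes had a median of -0.26, with none of 7 past 2-fold higher and 1, Slamf6, lower, beside the same 3.22% and 2.45%. Pdcd1, the PD-1 receptor, stood at 108 and 159 CPM (0.53, 0.02 to 1.11).

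Regulatory T cell genes had a median of 0.01, with 1 of 14 genes past 2-fold each way, beside 3.22% higher and 2.45% lower of all genes. Ikzf2, the Helios gene, was lower at 761 and 432 CPM (-0.81, -1.06 to -0.57), and most of its UMIs lay in cluster 2, where it stood at 2448 and 1063 CPM. Medians were -0.07 for the naive and recirculating list, 0.11 for tissue residency, 0.00 for helper and innate-like lineage genes, 0.08 for cytokine and chemokine receptors, 0.07 for adhesion and 0.09 for immediate early genes. Of these 6 lists, adhesion had 2 of 19 genes past 2-fold higher (Slamf1 and Ly9) and residency 1 of 18 (Prdm1). Immediate early had 1 of 38 higher (Ier3) and 2 lower (Hspa1a and Hspa1b). The all-gene shares given above apply to these lists too. The ratio of Ier3 turned to -0.21 after thinning. Among receptors, Cxcr4, which holds T cells in tissues rich in its ligand, stood at 500 and 808 CPM (0.69, 0.45 to 0.94) and was higher in the cKO library in each of the 6 clusters.

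Against gamma delta T cells, whose choice used the opposite side of the rule, the values are descriptive. Cd28 stood at 448 and 575 CPM in alpha beta and 0 and 14.3 CPM in gamma delta T cells. Cd6, a receptor at the T cell contact zone, stood at 283 and 357 against 0 and 4.21 CPM. Ccl5 stood at 756 and 482 against 6.42 and 25.3 CPM. All 3 were higher in alpha beta T cells in both libraries. On the low side, Blk, a kinase of gamma delta T cells and B cells, stood at 2.46 and 14.3 against 151 and 162 CPM, and Sdc1 at 61.6 and 48.2 against 478 and 432 CPM.

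Against NK cells (16 and 6 cells), Bcl11b, the regulator that commits cells to the T lineage, stood at 254 and 318 CPM against 0 and 0. Cxcr6, a receptor of tissue lymphocytes, stood at 483 and 441 against 0 and 0. Gzmb was lower, at 143 and 87.6 against 1779 and 1884 CPM, and Tyrobp at 73.9 and 50.03 against 796 and 496 CPM. With 6 NK cells in the cKO library, the comparison with that library rests on few cells.

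Receptor variable segments, which differ between T cell clones, were rarely read by a 3-prime kit. A Trav or Trbv UMI was present in 8 of 79 (10.1%) and 12 of 116 cells (10.3%), and none of the joining or diversity segments was seen. Trbv19 was found in 3 and 1 cells, Trbv16 and Trbv20 in 0 and 2 each, and every other segment in at most 1 cell per library. In gamma delta T cells a Trbv UMI was found in 0 and 4 cells. Clone sizes could not be read at this depth.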

How the data were processed

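Both libraries were deposited by the authors as unfiltered counts of UMIs per gene and barcode, with no normalization, per the file headers. The headers name Cell Ranger 4 and the submitters' processing notes name Cell Ranger 6.1.1 and mm10; which version made the files is not known. Cells were barcodes with at least 1000 UMIs, 500 genes and at most 20% mitochondrial UMIs. The cells and the gene lists were chosen with earlier results of these data known. Empty droplets were barcodes of 10 to 100 UMIs.

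UMIs were summed per library with Python 3.11.15, numpy 2.4.6 and scipy 1.17.1 and scaled to CPM; 5 CPM was added before log2 ratios, and genes under a mean of 20 CPM or in the rule were left out. No test was run, because each group has 1 library. Shares have Clopper-Pearson intervals, and ratios exact conditional ones, at 95%; both cover counting error only. A count of 0 allows up to 3. Thinning was to 1000 UMIs per cell. The code was tested on simulated data. Clusters came from scanpy 1.11.5 and igraph 0.11.9 (Leiden, 1500 variable genes each seen in at least 10 cells, 20 components, 15 neighbours, resolution 1). The genes named were the 10 highest and lowest ratios, genes of the lists, and the 8 leading genes of subsets and of the comparisons with gamma delta T cells and NK cells; the leading genes of clusters and the genes seen in 10 cells were chosen after the values were seen. Promoters were matched by symbol to the RefSeq table, for 60 of the 79 interferon genes. Alternatives are given in the closing section. Some items are not reported here.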

Additional observations from a re-analysis of the deposited data

Results flagged for a closer look

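The median of the cytotoxic and effector list lay on opposite sides of 0 in alpha beta and gamma delta T cells. The log2 ratio, cKO over control, had a median of -0.30 over 15 genes in alpha beta T cells and 0.36 over 5 genes in gamma delta T cells. Each taken against its own all-gene median, the medians differ by -0.67. Summed, the list took a lower share of UMIs in the cKO library in both: 0.257% and 0.202% in alpha beta T cells, and 0.142% and 0.108% in gamma delta T cells. The difference was not tested, since each library is 1 pool, and fewer genes of the list passed the floor in gamma delta T cells.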

How the results depend on the processing

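Over the alternatives run on the class as a whole or on a selection of its cells by purity, the interferon median ranged from -1.18 to -0.61. By cluster and coreceptor it went from -2.48 in cluster 2 to 0.19 in cluster 3, with -0.41 in Cd4-positive cells and -0.57 without cluster 2. It was -0.83 with 20 CPM added, -0.73 in cells with a Trac UMI, -0.79 without cells that had Tyrobp or Fcer1g, and -0.61 in clusters 1, 3 and 4. The log2 ratio of the alpha beta share was 0.061 among cells with no Epcam UMI and -0.60 among cells with a Cd3 UMI. The counts of genes past 2-fold higher in cKO and of genes past 2-fold lower in cKO were 909 and 604 after thinning, 70 and 64 with 20 CPM added, 825 and 557 with no floor, 58 and 56 with a floor of 50 CPM, and 468 and 324 in clusters 1, 3 and 4. The higher genes numbered 319 with the subsets weighted equally, 339 in cells with a Trac UMI and 374 without Tyrobp or Fcer1g cells. The cell cycle median was 0.38 after thinning, 0.44 as a mean over cells, -0.49 with equal subsets and 0.37 without cells of 2 or more cycling UMIs.

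Some named values turned. With a stricter purity gate Ccr9 was at 0.32. After thinning, Nrp1 was at -0.79, Ifit2 at 0.33, Ifi204 at 0.33, Trim30d at 0.026, Xaf1 at 0.40, Ier3 at -0.21 and Ahr at -0.37. In cells with a Trac UMI, Spp1 was at -0.14, Cxcl2 at -0.57, Prf1 at 0.43, Areg at -0.64 and Ifi204 at 0.14. Without Tyrobp or Fcer1g cells the MHC class I median was 0.0011, Spp1 was at -0.24, Gzmc at 0.59, Itgb8 at 1.60 and Ier3 at -0.027. In clusters 1, 3 and 4 the MHC class I median was 0.15, Spp1 was at -1.03, Il12rb1 at 0.80 and Ier3 at -1.06. Thinning and smaller sets of cells leave fewer UMIs per gene; otherwise the cause was not tested. The alternatives on Trac, class II, Tyrobp or Fcer1g, the clusters and the top cell of each gene were chosen after seeing the data. No paired analysis was possible because each group has 1 library, and no library could be left out.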
